A study of Homo sapiens with 9 samples.

Results

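The genes described here are 54 that copy DNA or carry a cell from G1 into S phase. They were chosen by name, as the rows of a deposited gene count table whose Ensembl identifiers map to a list of symbols. That rule uses no measured value, but earlier results of these data were known when the list was made. The 54 genes were found among 24542 rows of the table, and each of the 54 passed the filter on low counts that left 15558 genes for testing. RNA was sequenced from A2780, an established line from a human ovarian carcinoma that the labels give as WT, with 3 libraries per treatment and 9 in all. Cells had received 5.5 µM Pt-ttpy, 0.6 µM cisplatin, written Cispt in the labels, or 0.5% DMSO, each for 96 h. Cisplatin forms crosslinks in DNA, and the series title presents Pt-ttpy as a platinum complex that binds G-quadruplexes, folds of guanine-rich nucleic acid. The labels place each drug at its own IC80, so the concentrations differ, and do not say whether the drug cultures also held DMSO. The design text asks which genes respond to Pt-ttpy. The libraries of a treatment are labelled as biological replicates, with nothing on separate cultures, so p-values measure the spread between these libraries, which may be technical.

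Replication is prepared in G1, when the origin recognition complex, CDC6 and CDT1 load the ring of MCM2 to MCM7 onto DNA, a step called licensing. In S phase CDC45 and the GINS complex join that ring to form the moving helicase, and polymerases α, δ and ε follow it with the sliding clamp PCNA and its loader, replication factor C. Ribonucleotide reductase, thymidylate synthase and thymidine kinase supply the deoxynucleotides. Cyclin E with CDK2, which CDC25A activates, and the E2F factors, which RB proteins hold back, switch the programme on, and many genes of licensing and synthesis are E2F targets.

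Library totals ranged from 31264474 to 40826035 counts, of which the 54 genes held 0.575% to 0.744%. DMSO 2 and cisplatin 2 (the libraries are named by treatment and replicate number) stood apart from the other 7 on the second principal component, which carried 15.9% of the variance. Over 13383 tested genes with a known transcript, transcript GC content and the deviation of a library from the mean of all 9 had a Spearman rho of 0.424 in cisplatin 2 and 0.530 in DMSO 2, and of −0.353 to −0.173 in the other 7. Where the value of a called gene named here moved by over 1.5 times without both or without either, that value is given beside it. Of 12 markers of epithelial and Müllerian ovarian carcinoma, 9 stayed under 1 CPM (counts scaled to library size) in every library, KRT7 and SOX17 were at 0, and PAX8 was at 0 in the Pt-ttpy and DMSO libraries. The summed level of the 12 was 3.54 to 5.55 CPM with Pt-ttpy, 5.45 to 10.2 CPM with cisplatin and 2.42 to 3.47 CPM with DMSO. Of the 4 tested, KRT8 and EPCAM rose with cisplatin (adjusted p under 0.05) and 0 rose with Pt-ttpy. Fibroblast and mesenchymal markers summed to 7606 to 8181 CPM with Pt-ttpy, 7726 to 10975 CPM with cisplatin and 6090 to 7208 CPM with DMSO. By the same threshold, 6 of the 10 tested rose with each drug. Over all genes tested, 5.59% rose with Pt-ttpy and 10.7% with cisplatin. The part of these markers in the results below was not tested. Leukocyte markers summed to at most 5.80 CPM, with CD3D at 0, endothelial markers to at most 0.515 CPM and erythroid markers to at most 0.169 CPM.

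With cisplatin the genes of licensing, the helicase and the G1/S switch were lower in part, and with Pt-ttpy 4 of the 54 were lower. Cisplatin lowered 16 of 54 (29.6%) at an adjusted p under 0.05 (edgeR quasi-likelihood test, Benjamini-Hochberg over all genes tested), against 9.78% of all genes tested, and 0 were higher, against 10.7% of all genes. Pt-ttpy lowered MCM7, RRM2, CCNE1 and CDC25A, 4 of 54 (7.41%), against 6.45% of all genes tested, and raised 0, against 5.59% of all genes. The Pt-ttpy share is thus near that over all genes. In either direction, 1874 of the 15558 genes were called with Pt-ttpy, and 20.5% of the 15558 with cisplatin. At an unadjusted p under 0.05, 7 were lower and 1 higher with Pt-ttpy, against 15.4% and 14.4% of all genes, and 25 were lower and 1 higher with cisplatin, against 17.4% and 17.7%. By the DESeq2 Wald test the counts were 4 lower and 0 higher with Pt-ttpy, and 18 lower and 1 higher with cisplatin. Over all 15558 genes that test called 1490 lower and 1344 higher with Pt-ttpy, and 1824 lower and 2119 higher with cisplatin. Both comparisons use the same DMSO libraries, so their values stand side by side here and are not evidence for each other.

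The median log2 change of the 54 genes was −0.09 with Pt-ttpy, beside 0.03 over all genes tested, with a range of −0.63 to 0.47. With Pt-ttpy 36 of 54 (66.7%) were below 0, against 46.9% of all genes. The cisplatin median was −0.29, beside 0.01 over all genes, with a range of −0.83 to 0.30. With cisplatin 46 of 54 (85.2%) were below 0, against 48.9% of all genes. With upper-quartile factors or library totals the Pt-ttpy median was −0.02, beside 0.10 over all genes, and members minus all genes stayed at −0.12, as with TMM factors. The Pt-ttpy median was −0.05 without DMSO 2, and the cisplatin median was −0.14 without DMSO 2 and cisplatin 2. Every Pt-ttpy library lay below every DMSO library for 15 genes (27.8%), against 20.6% of all genes, and above for 4 (7.41%), against 20.3%. Every cisplatin library lay below every DMSO library for 26 genes (48.1%), against 19.4% of all genes, and above for 1, PRIM2, against 18.6%. In RNA from whole cultures, a smaller share of cells in S phase and less of these RNAs per cell cannot be told apart.

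The summed level of the 54 genes was 6608, 6753 and 6934 CPM in Pt-ttpy libraries 1, 2 and 3 and 6350, 5377 and 6573 CPM in cisplatin libraries 1, 2 and 3, against 7240, 7946 and 7114 CPM in DMSO libraries 1, 2 and 3. The 3 Pt-ttpy and the 3 cisplatin sums all lay below the 3 DMSO sums. Cisplatin 2 was the lowest of the 9 libraries for 40 of the 54 genes and DMSO 2 the highest for 27. The mean log2 deviation from the DMSO mean over the 54 genes was −0.10, −0.08 and −0.05 in the Pt-ttpy libraries and −0.19, −0.47 and −0.13 in the cisplatin libraries. The heat map of levels by library shows this as a bluer column for cisplatin 2.

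**Figure D1:**
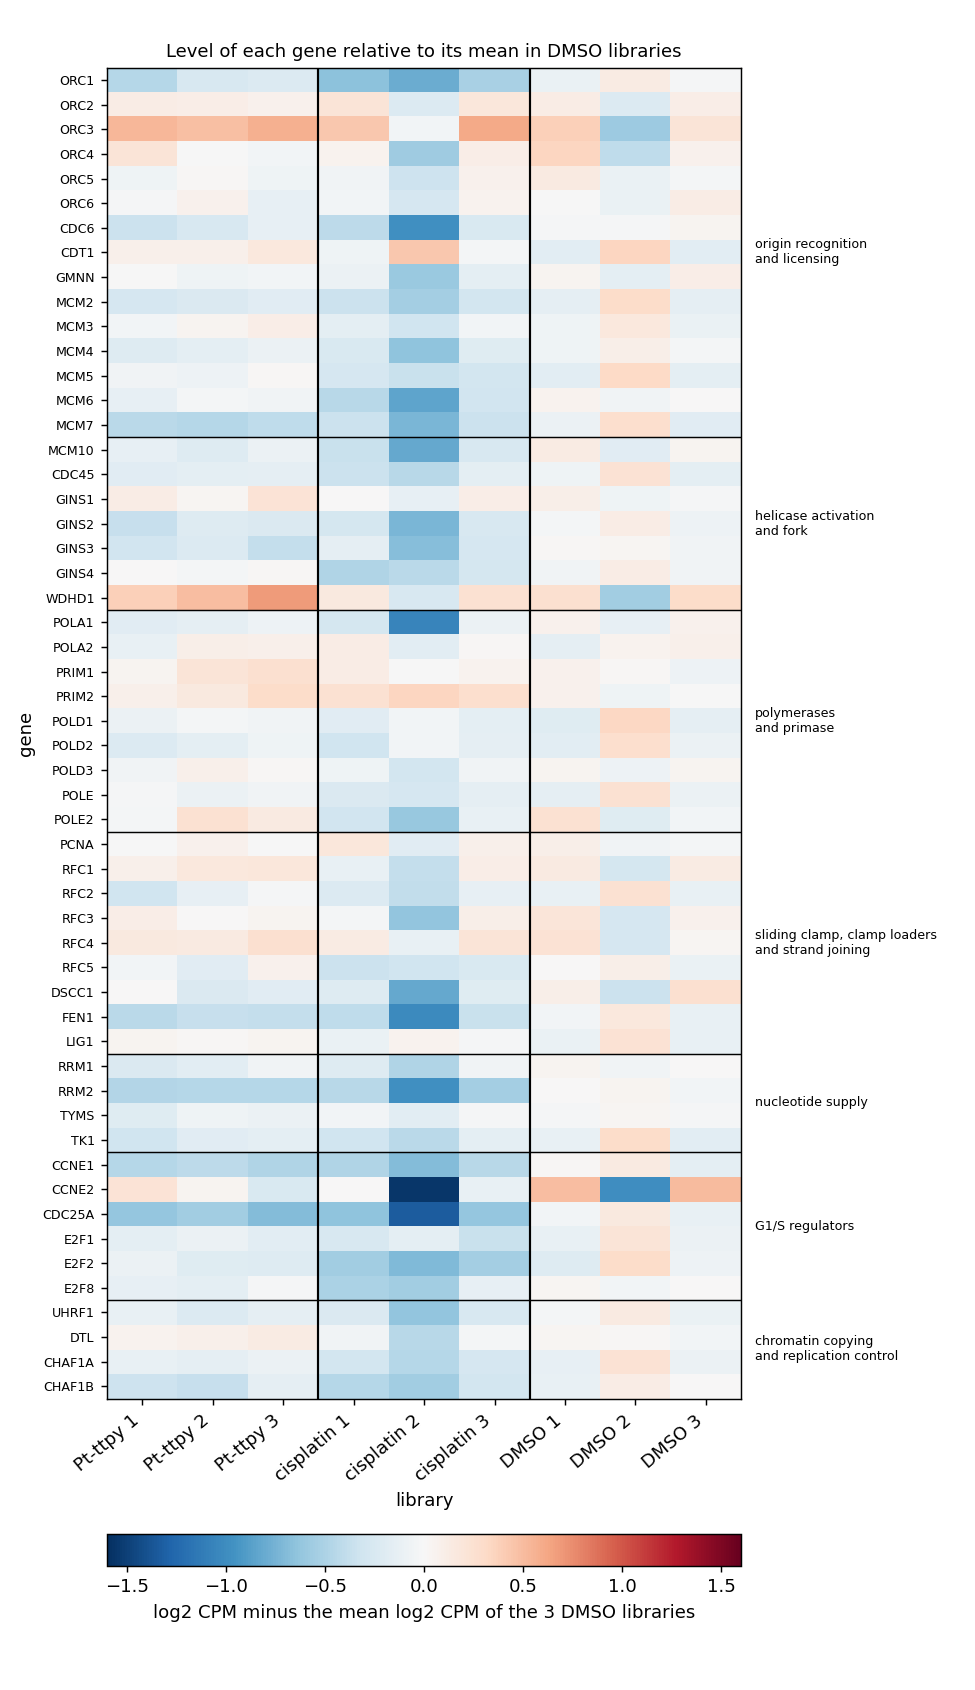
Level of each of the 54 genes (rows, grouped by role) in each of the 9 libraries (columns), as log2 CPM minus the mean log2 CPM of the 3 DMSO libraries; blue is lower and red is higher. Cisplatin 2 is the lowest of the 9 libraries for 40 of the 54 genes, and ORC1, RRM2, CCNE1 and CDC25A are blue in each of the 6 libraries of treated cells.

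The promoters of the 4 genes that fell with Pt-ttpy are shown because E2F sites and CCAAT boxes are common in promoters of S-phase genes and Pt-ttpy is presented as a G-quadruplex binder, and that of MCM6 because it held the most E2F octamers. They are RefSeq sequences on GRCh38.p14, from 250 bases before to 50 bases after a transcript start, read 5′ to 3′ on the gene's strand. CDC25A is chr3:48188368-48188667 on the minus strand, MCM7 chr7:100101348-100101647 on the minus strand, MCM6 chr2:135876394-135876693 on the minus strand, RRM2 chr2:10122489-10122788 on the plus strand and CCNE1 chr19:29811741-29812040 on the plus strand. Capitals mark the E2F octamers (TTTCCCGC, TTTCGCGC, TTTGCCGC or TTTGGCGC, on either strand) in CDC25A, MCM7 and MCM6, the letters CCAAT in RRM2, and in CCNE1 the G-quadruplex motif, 4 runs of at least 3 G, or of C, with 1 to 7 bases between them.
CDC25A: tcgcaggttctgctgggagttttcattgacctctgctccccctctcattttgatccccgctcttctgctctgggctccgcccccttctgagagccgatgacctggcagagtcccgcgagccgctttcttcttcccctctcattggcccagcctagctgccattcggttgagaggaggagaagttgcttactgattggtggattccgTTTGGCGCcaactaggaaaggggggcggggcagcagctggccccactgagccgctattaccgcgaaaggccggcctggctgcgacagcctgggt
MCM7: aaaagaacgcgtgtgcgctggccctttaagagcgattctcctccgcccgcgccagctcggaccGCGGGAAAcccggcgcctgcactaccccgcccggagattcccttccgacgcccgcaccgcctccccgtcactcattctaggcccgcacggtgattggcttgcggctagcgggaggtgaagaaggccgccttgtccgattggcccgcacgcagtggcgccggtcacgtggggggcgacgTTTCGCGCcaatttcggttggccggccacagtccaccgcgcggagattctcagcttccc
MCM6: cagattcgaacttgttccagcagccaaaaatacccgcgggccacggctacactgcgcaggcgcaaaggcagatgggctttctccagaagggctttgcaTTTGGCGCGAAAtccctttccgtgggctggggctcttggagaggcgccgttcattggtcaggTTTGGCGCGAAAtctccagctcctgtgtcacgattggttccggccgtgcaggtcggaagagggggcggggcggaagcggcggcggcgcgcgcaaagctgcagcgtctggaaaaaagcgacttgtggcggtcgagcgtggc
RRM2: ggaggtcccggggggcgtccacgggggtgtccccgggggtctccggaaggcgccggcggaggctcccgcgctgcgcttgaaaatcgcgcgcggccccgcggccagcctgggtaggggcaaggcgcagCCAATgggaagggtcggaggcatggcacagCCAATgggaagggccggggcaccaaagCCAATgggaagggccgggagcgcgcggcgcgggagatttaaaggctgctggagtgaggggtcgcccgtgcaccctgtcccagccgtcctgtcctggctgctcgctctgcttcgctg
CCNE1: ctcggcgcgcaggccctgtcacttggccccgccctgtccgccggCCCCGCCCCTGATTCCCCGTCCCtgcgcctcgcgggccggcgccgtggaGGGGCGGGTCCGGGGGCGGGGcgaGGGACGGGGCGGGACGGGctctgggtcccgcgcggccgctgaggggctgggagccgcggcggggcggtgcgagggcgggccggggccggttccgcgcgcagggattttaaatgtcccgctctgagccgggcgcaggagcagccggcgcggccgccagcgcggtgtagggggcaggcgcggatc

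The octamer of CDC25A began 44 bases before the start, those of MCM7 at 187 and 9 bases before it. MCM6 held 4 octamers in 2 overlapping pairs, at 152 and 148 and at 90 and 86 bases before its start. RRM2 had CCAAT at 123, 93 and 66 bases, each within a near repeat, and the 3 motifs of CCNE1 began at 206, 157 and 133 bases before the start. Left unmarked, CCAAT on either strand also stood 2 times in the CDC25A window, 3 times in MCM7 and 2 times in MCM6. Of the 54 genes 47 matched the promoter table, with 60 start windows; MCM4, MCM5, GINS4, POLD3, DSCC1, CCNE2 and E2F8 did not. An E2F octamer stood in 25 of the 60 windows (41.7%), against 3.32% of 35116 windows of all genes. By gene that was 24 of 47 (51.1%), against 6.53% of 10698 tested genes with a window. The letters CCAAT, on either strand and free to overlap other motifs, stood in 56.7% of the windows, against 34.6% of all windows. The G-quadruplex motif stood in 31.7% of the windows, against 8778 of the 35116 windows, and by gene the shares were 36.2%, against 41.9% of tested genes.

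The changes can be set out by motif, as medians and counts. A gene was counted with a motif if any of its start windows held it. MCM7 has 3 start windows and RRM2 has 2, and their G-quadruplex motifs stand in a window that is not shown above. The 24 genes with an E2F octamer had a median log2 change of −0.07 with Pt-ttpy and −0.27 with cisplatin. For the 23 without, the medians were −0.13 and −0.24. Cisplatin lowered 8 of the 24 and 7 of the 23, and Pt-ttpy 2 of the 24 and 2 of the 23. The 17 genes with a G-quadruplex motif had a median of −0.08 with Pt-ttpy and −0.35 with cisplatin. For the 30 without, the medians were −0.10 and −0.23. Cisplatin lowered 8 of the 17 and 7 of the 30, and Pt-ttpy 3 of the 17 and 1 of the 30. These are counts of letters in one window per start, given with no test, and say nothing of whether a factor or a drug is bound there.

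Of the 15 genes of origin recognition and licensing, 5 fell with cisplatin (ORC1, CDC6, MCM2, MCM6 and MCM7) and 1 with Pt-ttpy (MCM7). ORC1 had 55.3, 63.3 and 64.9 CPM in the Pt-ttpy libraries and 47.9, 43.7 and 52.7 CPM in the cisplatin libraries, against 70.2, 82.7 and 74.8 CPM in the DMSO libraries. The 3 groups did not overlap, with the Pt-ttpy libraries between the other 2 groups. ORC1, an ATP-binding subunit of the origin complex that varies over the cell cycle, fell by 36.6% with cisplatin (log2 change −0.66 ± 0.12 SE, adjusted p = 0.00409). Its log2 change with Pt-ttpy was −0.31 ± 0.11 (adjusted p = 0.093). The cisplatin call was kept in each of 20 other settings. The other subunits, ORC2 to ORC6, had log2 changes of −0.05 to 0.47 with Pt-ttpy and −0.14 to 0.30 with cisplatin, and 0 of the 5 were called in either comparison, where the lowest adjusted p was 0.181 with Pt-ttpy and 0.367 with cisplatin.

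CDC6 and CDT1 load the MCM ring together. CDC6 had 114, 121 and 132 CPM in the Pt-ttpy libraries and 109, 73.7 and 122 CPM in the cisplatin libraries, against 142, 143 and 149 CPM in the DMSO libraries. Its cisplatin libraries spread widely, with cisplatin 2 lowest, and its log2 change was −0.51 ± 0.16 with cisplatin (adjusted p = 0.0375) and −0.24 ± 0.16 with Pt-ttpy (adjusted p = 0.32). The cisplatin call was lost in 8 of 9 fits that each left out a library, all but that without cisplatin 3 (highest adjusted p = 0.0948). Its change with cisplatin was −0.33 without cisplatin 2 and −0.33 without DMSO 2 and cisplatin 2. CDT1 had log2 changes of 0.09 with Pt-ttpy and 0.11 with cisplatin, and GMNN, the inhibitor of CDT1, −0.05 and −0.27; neither gene was called with either drug.

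Of the ring subunits MCM2 to MCM7, cisplatin lowered 3 of 6 and Pt-ttpy 1 of 6, and all 6 had a log2 change below 0 with cisplatin (−0.52 to −0.17). MCM7 had 402, 394 and 409.5 CPM in the Pt-ttpy libraries and 429, 327 and 427 CPM in the cisplatin libraries, against 509, 656 and 479 CPM in the DMSO libraries. Both drug groups lay below the DMSO group without overlap, and DMSO 2 was the highest library. MCM7 had a log2 change of −0.45 ± 0.13 with Pt-ttpy (adjusted p = 0.0496) and −0.48 ± 0.13 with cisplatin (adjusted p = 0.0286). The Pt-ttpy call sits at the threshold and was lost without any one of Pt-ttpy 1, 2 or 3, DMSO 1 or 2, or cisplatin 1 or 3 (highest adjusted p = 0.162). It was also lost with upper-quartile factors, library totals, limma-voom and the fit with no robust estimation. The cisplatin call was lost without DMSO 2, cisplatin 2 or Pt-ttpy 2 (highest adjusted p = 0.0756). Without DMSO 2 and cisplatin 2 the change of MCM7 was −0.29 with Pt-ttpy and −0.20 with cisplatin, and that with Pt-ttpy was −0.30 without DMSO 2 alone. MCM7 shares 8.94% of its exon positions with AP4M1 on the other strand, and the strandedness of the counting is not given in the sources used here, so reads of the 2 genes cannot be told apart there.

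MCM6 had 262, 279.7 and 275 CPM in the Pt-ttpy libraries and 211, 159 and 232 CPM in the cisplatin libraries, against 297, 275 and 288 CPM in the DMSO libraries. The cisplatin libraries lay below all others, while the Pt-ttpy and DMSO ranges overlapped. Its log2 change was −0.52 ± 0.12 with cisplatin (adjusted p = 0.0152) and −0.08 ± 0.12 with Pt-ttpy (adjusted p = 0.729). The cisplatin call was kept in each of the 9 fits without a library. It was lost in a fit of only the 6 cisplatin and DMSO libraries. MCM2 had 311, 319.9 and 329.7 CPM in the Pt-ttpy libraries and 296, 257 and 306 CPM in the cisplatin libraries, against 339, 459 and 340.1 CPM in the DMSO libraries. DMSO 2 stood well above DMSO 1 and 3, which were nearly equal. MCM2 fell by 24.5% with cisplatin (log2 change −0.40 ± 0.12, adjusted p = 0.0395), a call lost without DMSO 2, any one cisplatin library or any one Pt-ttpy library (highest adjusted p = 0.106), and had −0.24 ± 0.12 with Pt-ttpy (adjusted p = 0.212). The cisplatin change of MCM2 was −0.24 without DMSO 2 and −0.17 without DMSO 2 and cisplatin 2. An antisense gene covers 22.7% of the exon positions of MCM2. MCM3, MCM4 and MCM5 were not called with either drug, with log2 changes of 0.03, −0.15 and −0.06 with Pt-ttpy and −0.17, −0.35 and −0.32 with cisplatin.

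Among the 7 genes of helicase activation and the fork, cisplatin lowered MCM10, GINS2 and GINS4, and Pt-ttpy lowered 0 (7 tested, lowest unadjusted p 0.0406, for WDHD1, which was higher). GINS4 had 56.3, 54.9 and 56.8 CPM in the Pt-ttpy libraries and 40.3, 41.8 and 46.2 CPM in the cisplatin libraries, against 53.8, 60.8 and 54.1 CPM in the DMSO libraries. The cisplatin libraries lay below the rest, and the Pt-ttpy values lay within the DMSO range. GINS4 is a subunit of the complex that joins CDC45 to the ring. Its log2 change was −0.39 ± 0.10 with cisplatin (adjusted p = 0.0218) and −0.01 ± 0.10 with Pt-ttpy (adjusted p = 0.973). The cisplatin call was lost without cisplatin 1 (adjusted p = 0.0691). It was also lost with upper-quartile factors, library totals and a fit of only the 6 cisplatin and DMSO libraries. An antisense gene covers 21.2% of the exon positions of GINS4. MCM10, which acts in starting the helicase, and GINS2 had log2 changes of −0.46 and −0.41 with cisplatin (adjusted p = 0.0416 and 0.0489), and −0.15 and −0.27 with Pt-ttpy (adjusted p = 0.524 and 0.204). MCM10 lost its call in 7 of 9 fits without a library, all but those without DMSO 2 or cisplatin 3, and GINS2 in 8, all but that without cisplatin 3 (highest adjusted p = 0.117 and 0.115). The cisplatin change of GINS2 was −0.27 without cisplatin 2 and −0.20 without DMSO 2 and cisplatin 2.

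WDHD1 had 67.1, 72.8 and 82.5 CPM in the Pt-ttpy libraries and 57.3, 43.0 and 61.2 CPM in the cisplatin libraries, against 61.6, 35.0 and 63.3 CPM in the DMSO libraries. All Pt-ttpy libraries lay above the rest, and DMSO 2 was the lowest library. WDHD1, which ties polymerase α to the helicase, had the largest positive log2 change of the 54 genes with Pt-ttpy, 0.47 ± 0.21 (unadjusted p = 0.0406, adjusted p = 0.148), and 0.01 ± 0.21 with cisplatin (adjusted p = 0.973). Its change with Pt-ttpy was 0.25 without DMSO 2 (adjusted p = 0.306) and 0.25 without DMSO 2 and cisplatin 2 (adjusted p = 0.0173). CDC45, GINS1 and GINS3 were not called with either drug.

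**Figure D2:**
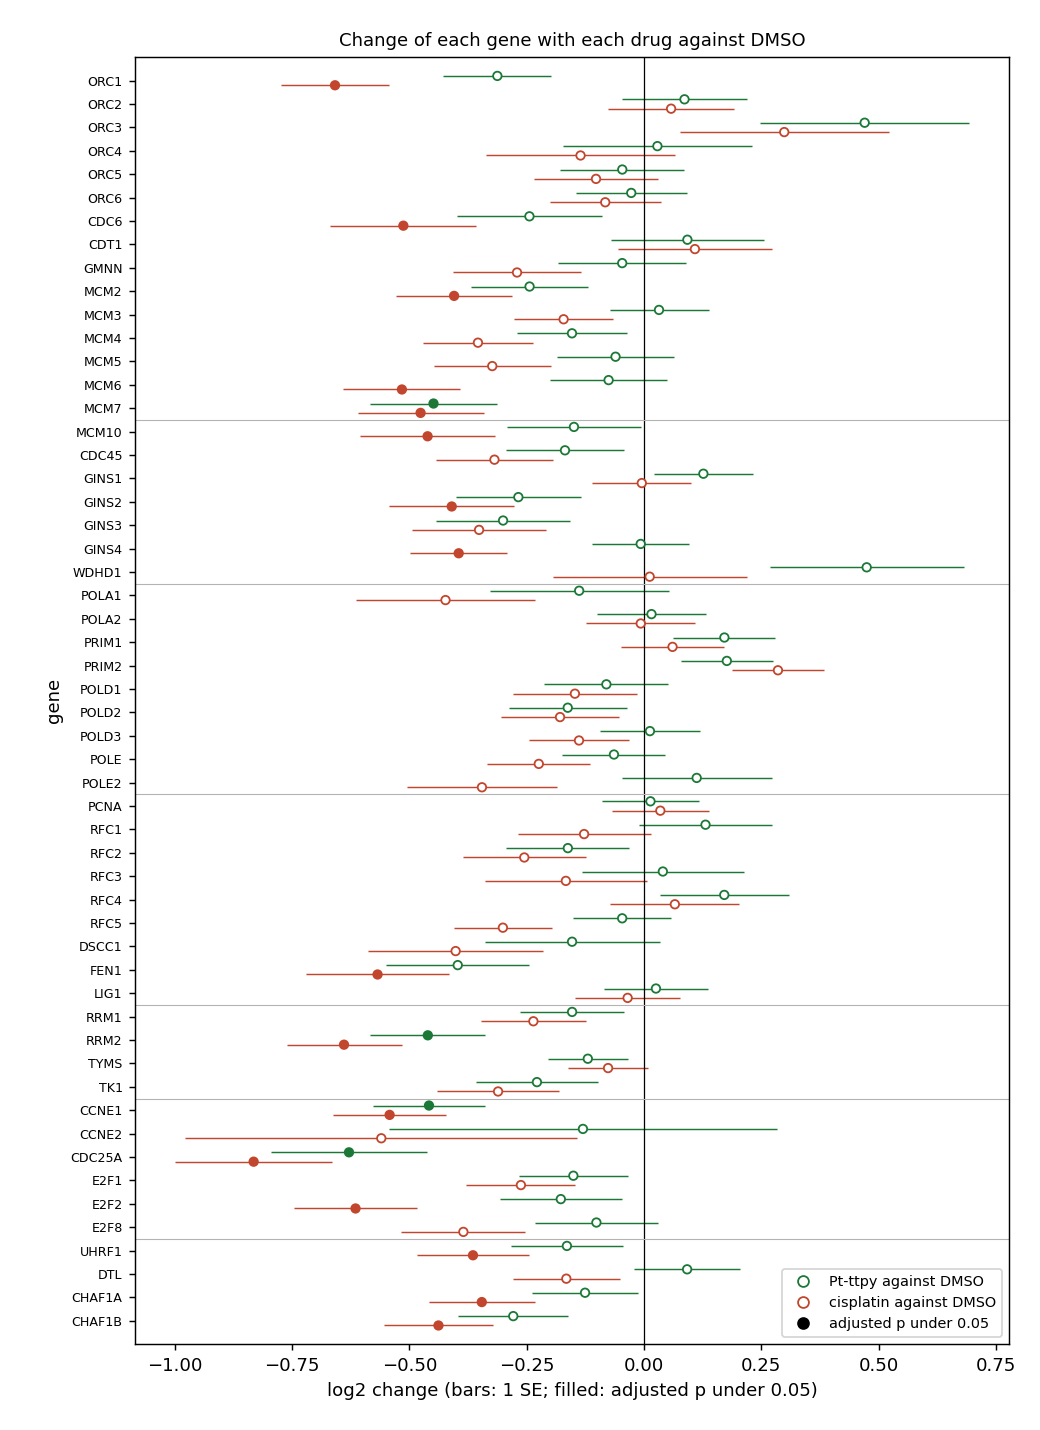
Fitted log2 change of each of the 54 genes (rows, grouped by role as in the heat map) with Pt-ttpy against DMSO (green) and cisplatin against DMSO (red); bars are 1 SE and filled points have an adjusted p under 0.05. The 4 filled green and 16 filled red points all lie left of 0, and no polymerase or primase gene is filled.

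The 9 genes of polymerases and primase gave no call with either drug (0 of 9; lowest unadjusted p 0.0974 with Pt-ttpy and 0.0132 with cisplatin, both for PRIM2). The DESeq2 Wald test called PRIM2 higher with cisplatin and 0 of the 9 with Pt-ttpy. Their log2 changes ran from −0.16 to 0.18 with Pt-ttpy and from −0.42 to 0.29 with cisplatin. PRIM2 had 71.8, 75.2 and 82.7 CPM in the Pt-ttpy libraries and 80.1, 85.8 and 81.7 CPM in the cisplatin libraries, against 70.7, 64.8 and 67.7 CPM in the DMSO libraries. Both drug groups lay above the DMSO group. PRIM2, the large subunit of primase, had log2 changes of 0.18 ± 0.10 with Pt-ttpy (adjusted p = 0.254, and 0.12 without Pt-ttpy 3) and 0.29 ± 0.10 with cisplatin (adjusted p = 0.0584). The cisplatin value was called with upper-quartile factors (0.37, adjusted p = 0.0261) and library totals (0.38, adjusted p = 0.0271). POLA1, the catalytic subunit of polymerase α, had 34.7 CPM in cisplatin 2, against 65.7 to 75.2 CPM in the DMSO libraries, and a log2 change of −0.42 ± 0.19 with cisplatin (adjusted p = 0.138).

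Among the 9 genes of the sliding clamp, its loaders and strand joining, cisplatin lowered 1, FEN1, and Pt-ttpy lowered 0 (lowest unadjusted p 0.0235, for FEN1). FEN1 had 154, 160.2 and 159 CPM in the Pt-ttpy libraries and 156, 102 and 161 CPM in the cisplatin libraries, against 201, 232 and 189.9 CPM in the DMSO libraries. Every library of either drug lay below every DMSO library, with cisplatin 2 far below the rest. FEN1, the nuclease that trims flaps of lagging-strand fragments, fell by 32.5% with cisplatin (log2 change −0.57 ± 0.15, adjusted p = 0.0239, and 0.064 without DMSO 2), and its change was −0.29 without DMSO 2 and cisplatin 2. With Pt-ttpy its log2 change was −0.40 ± 0.15 (adjusted p = 0.106), called without cisplatin 2 (0.0137). It shares exon positions with TMEM258 (6.70%) and FADS2 (1.98%). PCNA itself had log2 changes of 0.01 ± 0.10 with Pt-ttpy (95% interval −0.21 to 0.24) and 0.03 ± 0.10 with cisplatin (95% interval −0.19 to 0.26). RFC1 to RFC5 gave 0 calls of 5 with either drug (lowest adjusted p 0.437 with Pt-ttpy, for RFC4, and 0.0612 with cisplatin, for RFC5), and LIG1, which seals the fragments, had 0.03 and −0.03. RFC5 had 80.9, 73.4 and 87.5 CPM with Pt-ttpy and 65.6, 66.7 and 70.4 CPM with cisplatin, against 83.8, 88.9 and 77.0 CPM with DMSO.

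Of the 4 genes of nucleotide supply, RRM2 fell with both drugs and the others were not called. RRM2 had 309, 314 and 313 CPM in the Pt-ttpy libraries and 315, 218 and 294 CPM in the cisplatin libraries, against 430.4, 442 and 416 CPM in the DMSO libraries. The 3 Pt-ttpy libraries were almost equal and lay far below the DMSO range, and cisplatin 2 was the lowest library. RRM2, the S-phase subunit of ribonucleotide reductase, fell by 27.3% with Pt-ttpy (log2 change −0.46 ± 0.12, adjusted p = 0.0324) and fell by 35.8% with cisplatin (log2 change −0.64 ± 0.12, adjusted p = 0.00601). The cisplatin call was kept in each of 20 other settings. The Pt-ttpy call was lost without any one Pt-ttpy or DMSO library (highest adjusted p = 0.118) and kept without any one cisplatin library. Same-strand gene AC007240.1 covers 20.2% of the exon positions of RRM2, and 3 annotated pseudogene copies of RRM2 are not rows of the table, so how such reads were assigned is uncertain. RRM1, the large subunit, had log2 changes of −0.15 ± 0.11 with Pt-ttpy and −0.24 ± 0.11 with cisplatin (adjusted p = 0.387 and 0.154). TYMS had −0.12 ± 0.09 and −0.08 ± 0.09, and TK1 −0.23 ± 0.13 and −0.31 ± 0.13, for the same pair of comparisons.

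The 6 regulators of G1/S held the largest fall of the 54 genes with each drug, that of CDC25A. Pt-ttpy lowered CCNE1 and CDC25A, and cisplatin lowered these and E2F2. CDC25A had 75.4, 78.9 and 71.5 CPM in the Pt-ttpy libraries and 74.5, 46.1 and 75.7 CPM in the cisplatin libraries, against 113, 129.7 and 107 CPM in the DMSO libraries. All 6 libraries of treated cells lay below the DMSO range, with cisplatin 2 lowest. CDC25A, the phosphatase that activates CDK2, fell by 35.3% with Pt-ttpy (log2 change −0.63 ± 0.17, adjusted p = 0.0324) and fell by 43.8% with cisplatin (log2 change −0.83 ± 0.17, adjusted p = 0.00731). CCNE1 had 30.6, 31.4 and 30.0 CPM in the Pt-ttpy libraries and 30.1, 26.0 and 30.7 CPM in the cisplatin libraries, against 42.5, 46.4 and 37.5 CPM in the DMSO libraries. The Pt-ttpy and cisplatin ranges overlapped, and both lay below DMSO. CCNE1, cyclin E1, fell by 27.2% with Pt-ttpy (log2 change −0.46 ± 0.12, adjusted p = 0.0312) and fell by 31.3% with cisplatin (log2 change −0.54 ± 0.12, adjusted p = 0.0111).

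In a fit of only the 6 cisplatin and DMSO libraries, the cisplatin call of CCNE1 was lost. The cisplatin calls of CDC25A, CCNE1 and E2F2 were kept in each of the 9 fits without a library. Without DMSO 2 and cisplatin 2 the cisplatin changes of CDC25A and E2F2 were −0.54 and −0.40. The Pt-ttpy calls were not: that of CDC25A was lost without any one Pt-ttpy or DMSO library (highest adjusted p = 0.116), and that of CCNE1 without any one Pt-ttpy library, DMSO 1 or DMSO 2 (highest adjusted p = 0.113). E2F2 had 68.5, 63.6 and 63.4 CPM in the Pt-ttpy libraries and 49.7, 44.8 and 49.9 CPM in the cisplatin libraries, against 63.1, 89.0 and 68.8 CPM in the DMSO libraries. The cisplatin libraries were close together and below the rest, while the Pt-ttpy libraries lay within the DMSO range. E2F2, an activating E2F, fell by 34.7% with cisplatin (log2 change −0.61 ± 0.13, adjusted p = 0.00907) and had −0.18 ± 0.13 with Pt-ttpy (adjusted p = 0.389). E2F1 and the repressor E2F8 had log2 changes of −0.15 and −0.10 with Pt-ttpy and −0.26 and −0.38 with cisplatin, and were not called. E2F8 with cisplatin (adjusted p = 0.0583) was called lower by the DESeq2 Wald test (0.0404) and limma-voom (0.049). It was also called with a replicate block, without cisplatin 3, and without DMSO 2 and cisplatin 2. CCNE2, cyclin E2, had the largest standard error of the 54 genes with cisplatin, 0.42 on the log2 scale. It had 10.2, 9.13 and 7.44 CPM with Pt-ttpy and 8.89, 3.01 and 8.09 CPM with cisplatin, against 12.4, 4.44 and 12.5 CPM with DMSO, with the lowest values in cisplatin 2 and DMSO 2. INTS8 on the other strand covers 37.0% of its exon positions.

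Of the 4 genes of chromatin copying and replication control, cisplatin lowered CHAF1A, CHAF1B and UHRF1 and Pt-ttpy lowered 0 (lowest unadjusted p 0.0345, for CHAF1B). CHAF1B had 49.4, 48.2 and 56.2 CPM in the Pt-ttpy libraries and 45.0, 42.0 and 50.6 CPM in the cisplatin libraries, against 56.9, 67.4 and 62.1 CPM in the DMSO libraries. Every library of either drug lay below every DMSO library. CHAF1B, a subunit of the assembly factor that places histones behind the fork, had log2 changes of −0.28 ± 0.12 with Pt-ttpy (adjusted p = 0.134) and −0.44 ± 0.12 with cisplatin (adjusted p = 0.0231), the call being lost without DMSO 3, cisplatin 1 or cisplatin 2 (highest adjusted p = 0.0608). UHRF1, which brings the maintenance methyltransferase to new DNA, and CHAF1A had −0.36 and −0.35 with cisplatin (adjusted p = 0.049 and 0.0491), and −0.16 and −0.13 with Pt-ttpy. UHRF1 lost its call without any one of the 9 libraries and CHAF1A in 8 of 9 such fits, all but that without DMSO 1 (highest adjusted p = 0.117 and 0.122). Without DMSO 2 and cisplatin 2 their cisplatin changes were −0.16 each, and that of CHAF1A was −0.22 without DMSO 2 alone. DTL had 141, 143 and 149 CPM in the Pt-ttpy libraries and 130.3, 100.1 and 133 CPM in the cisplatin libraries, against 138, 137 and 131 CPM in the DMSO libraries. DTL, which marks CDT1 for destruction in S phase, had log2 changes of 0.09 ± 0.11 with Pt-ttpy and −0.17 ± 0.11 with cisplatin, neither called.

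**Figure D3:**
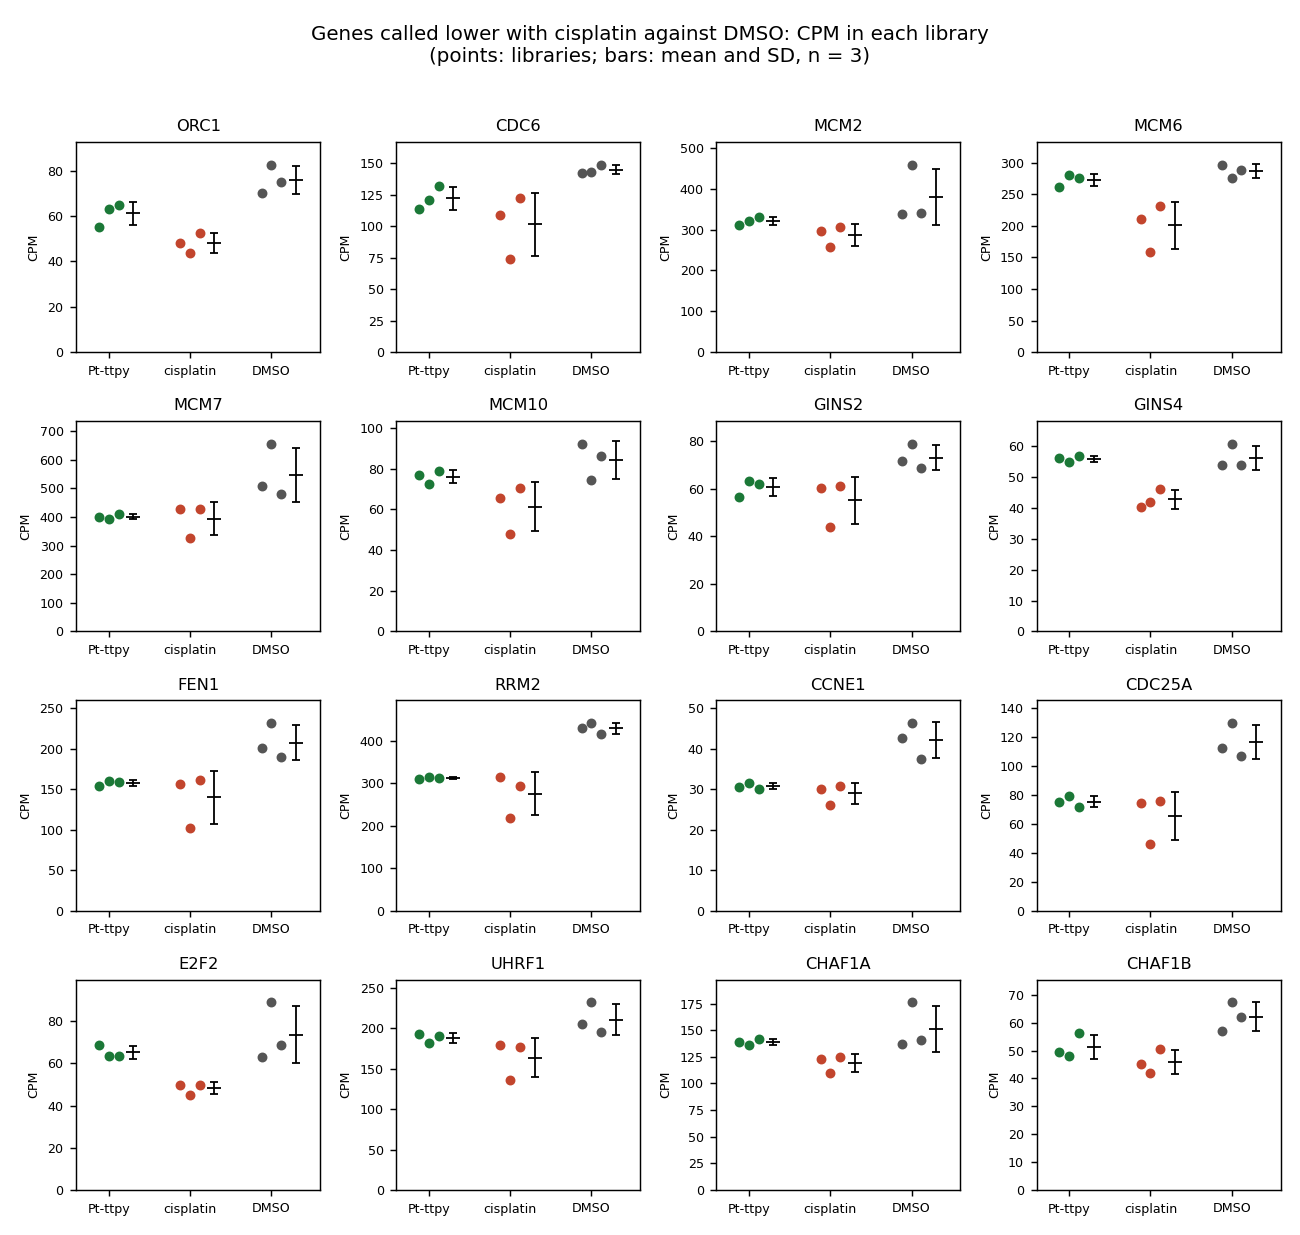
CPM (vertical axes, from 0) of the 16 genes called lower with cisplatin, in the 3 Pt-ttpy, 3 cisplatin and 3 DMSO libraries; points are libraries in order of replicate number, and bars give the mean and SD (n = 3). Every cisplatin point lies below every DMSO point in each of the 16 panels, and the Pt-ttpy points of MCM6, MCM10, GINS4, E2F2 and CHAF1A overlap the DMSO range.

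The number of called genes moved with single libraries. With Pt-ttpy it was 0 without Pt-ttpy 1, Pt-ttpy 2, Pt-ttpy 3, DMSO 1 or DMSO 2 and 2 without DMSO 3, in place of 4. Over all genes the Pt-ttpy calls were 267, 185 and 299 without Pt-ttpy 1, 2 and 3. They were 1737, 1292 and 1150 without DMSO 1, 2 and 3, in place of 1874. With cisplatin the number among the 54 was 8 without cisplatin 1 or cisplatin 2, and 9 without DMSO 2 or Pt-ttpy 2. It was 10 without DMSO 3, Pt-ttpy 1 or Pt-ttpy 3, in place of 16, and each of these genes was among the 16. Over all genes the cisplatin calls were then 2012 to 3100, in place of 3190. Without DMSO 2 and cisplatin 2, Pt-ttpy lowered 15 of the 54 (27.8%), against 17.4% of all genes, and raised 4 (7.41%), against 15.8%. The 4 higher were CDT1 (0.29), WDHD1 (0.25), ORC3 (0.24) and LIG1 (0.15, all as log2 changes). The 15 lower were led by CDC25A (−0.54), CCNE2 (−0.47), RRM2 (−0.44) and CCNE1 (−0.38). In the same 7 libraries cisplatin lowered 22 (40.7%), against 16.4% of all genes, and raised 1, PRIM2, against 13.9%. These 22 held the 16 called over all 9 libraries.

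The transcripts of the 54 genes had a median GC content of 46.7%, against 49.0% over tested genes. Across the 54 genes, the log2 change with Pt-ttpy went down with GC content (Spearman rho −0.49 over 9 libraries) and did not without DMSO 2 and cisplatin 2 (rho 0.05). With cisplatin rho was −0.25 over 9 libraries and −0.04 over the 7. The genes share the same libraries, and these values are a description.

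Set against each other, the drugs gave 0 calls among the 54 genes by edgeR, with 0.0578% of all genes called higher and 0.456% called lower with Pt-ttpy than with cisplatin. DESeq2 and limma-voom also gave 0. At an unadjusted p under 0.05, 8 of 54 (14.8%) were higher with Pt-ttpy, against 2.92% of all genes, and 0 were lower, against 5.14%. The log2 difference, Pt-ttpy minus cisplatin, was above 0 for 50 of 54 genes. It was below 0 for 4 (7.41%), against 49.2% of all genes. Its median was 0.16, beside 0.00 over all genes, and 0.08 without cisplatin 2. Every Pt-ttpy library lay above every cisplatin library for 17 genes (31.5%), against 10.5% of all genes, and below for 0, against 10.1%. The doses differ, as given above.

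The 8 genes were GINS4, MCM6, E2F2, ORC1, POLE2, RFC5, DTL and WDHD1. GINS4 had the lowest p, with a difference of 0.39 (95% interval 0.16 to 0.61, unadjusted p = 0.00289, adjusted p = 0.194). MCM6 differed by 0.44 (95% interval 0.17 to 0.71, adjusted p = 0.236) and E2F2 by 0.44 (95% interval 0.15 to 0.72, adjusted p = 0.278, and 0.0378 without DMSO 2). For each of these 3 genes the Pt-ttpy values overlapped the DMSO range, and the cisplatin values lay below both. POLE2, a subunit of polymerase ε, had 22.5, 27.3 and 25.4 CPM with Pt-ttpy, against 18.6, 15.1 and 21.1 CPM with cisplatin (difference 0.46, 95% interval 0.11 to 0.81, adjusted p = 0.415). RFC5 and DTL differed by 0.25 and 0.26 (adjusted p = 0.548 and 0.592), and DTL by 0.14 without cisplatin 2.

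For the 4 genes called with Pt-ttpy the log2 differences, each with an interval that spans 0, were 0.03 for MCM7 (95% interval −0.26 to 0.32), 0.18 for RRM2 (−0.09 to 0.44), 0.08 for CCNE1 (−0.18 to 0.35) and 0.20 for CDC25A (−0.16 to 0.57). They moved most without cisplatin 2, where they were −0.09 for MCM7, 0.034 for RRM2, 0.012 for CCNE1 and 0.0033 for CDC25A. Without cisplatin 1 they were 0.09 for MCM7, 0.29 for RRM2 and 0.31 for CDC25A, and without cisplatin 3 they were 0.09 for MCM7, 0.13 for CCNE1 and 0.32 for CDC25A. That of MCM7 was 0.041 without Pt-ttpy 2 and 0.014 without Pt-ttpy 3. Without DMSO 2 and cisplatin 2, 6 of the 54 were called higher with Pt-ttpy than with cisplatin (11.1%, against 2.37% of all genes), and 0 lower, against 2.83%. They were E2F2 (0.39), GINS4 (0.37), WDHD1 (0.32), MCM6 (0.30), ORC1 (0.28) and MCM5 (0.24, as log2 differences).

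**Figure D4:**
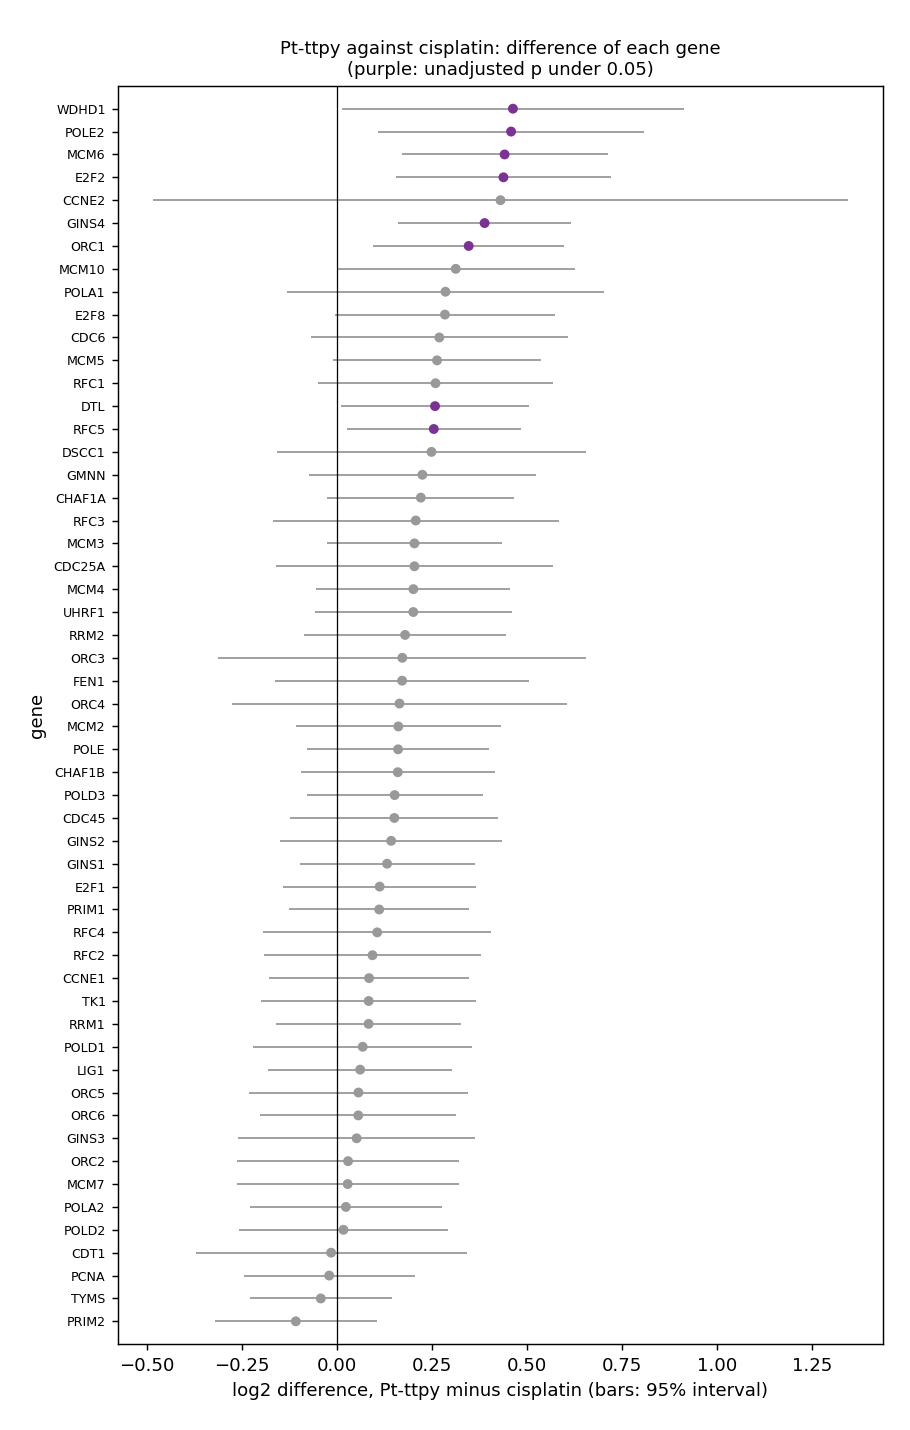
Log2 difference of each of the 54 genes, Pt-ttpy minus cisplatin (horizontal axis), with its 95% interval, in order of size; purple points have an unadjusted p under 0.05. The points of 50 of the 54 genes lie right of 0, 8 are purple and none passed the adjusted threshold.

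Per length of exons the genes spanned a wide range of levels in all groups. The length joins all annotated exons of a gene, whichever transcript is expressed, so the order of the genes depends in part on annotation. PCNA was the highest, at 199 CPM per kb with Pt-ttpy, 202 with cisplatin and 197 with DMSO, followed by TYMS (141, 146 and 154 CPM per kb in the same order) and MCM7 (91.6, 89.9 and 125). CCNE2 was the lowest, at 2.03, 1.52 and 2.22 CPM per kb. ENOSF1 on the other strand covers 39.15% of the exon positions of TYMS. Within the MCM ring, whose subunits stand in equal number in the complex, MCM7 was above MCM5 in each group (37.4, 31.2 and 39.0 CPM per kb for MCM5). The exon length used was 4386 bases for MCM7 and 7338 bases for MCM5. The origin subunits lay lower, from 5.72 to 19.4 CPM per kb with Pt-ttpy, 5.11 to 15.2 with cisplatin and 5.60 to 24.0 with DMSO. With DMSO, ORC1 was the highest origin subunit (24.0 CPM per kb), and with cisplatin it stood at 15.2, beside 13.8 for ORC2.

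Genes of the same pathway outside the 54 were read from 3 further lists. Of 36 other genes of the fork and of origins, Pt-ttpy lowered 3 and raised 1, and cisplatin lowered 11 and raised 1, with median log2 changes of −0.12 and −0.30. Over all genes tested, 6.45% were lower and 5.59% higher with Pt-ttpy, and 9.78% lower and 10.7% higher with cisplatin, which is the background for all 3 lists. The 3 that fell with Pt-ttpy were POLE4 (−0.92, adjusted p = 0.00599) and POLE3 (−0.70, adjusted p = 0.0207), histone-fold subunits of polymerase ε, and SSRP1 of the FACT histone chaperone (−0.41, adjusted p = 0.0216). ASF1A, a histone chaperone, rose (0.51, adjusted p = 0.0402). POLE4 had 10.2, 10.0 and 9.01 CPM in the Pt-ttpy libraries and 10.8, 11.5 and 9.84 CPM in the cisplatin libraries, against 18.0, 20.6 and 16.8 CPM in the DMSO libraries. No drug library reached the DMSO range. With cisplatin the changes were −0.79 for POLE4, −0.66 for POLE3 and −0.49 for SSRP1 (adjusted p = 0.00517, 0.0165 and 0.00652), and POLD4, the small subunit of polymerase δ, rose (1.00, adjusted p = 0.0141, and 0.0539 without DMSO 3). POLD4 had 13.9, 25.3 and 13.6 CPM with cisplatin, against 8.38, 10.6 and 7.44 CPM with DMSO, and its change was 0.64 without cisplatin 2, its highest cisplatin library. The cisplatin change of POLE3 was −0.40 without DMSO 2 and cisplatin 2. POLE4 kept its call with both drugs without any one library. With Pt-ttpy, SSRP1 lost its call without any one Pt-ttpy library, POLE3 without these or DMSO 2, and ASF1A without these, DMSO 2, DMSO 3 or cisplatin 3 (highest adjusted p = 0.103, 0.0957 and 0.131).

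Of 15 other genes of nucleotide supply, Pt-ttpy lowered 2 and raised 0 (median −0.25), and cisplatin lowered 1 and raised 1 (median −0.20). RRM2B, the reductase subunit that p53 induces, had 65.7, 74.5 and 67.2 CPM with Pt-ttpy and 129, 93.7 and 115 CPM with cisplatin, against 67.4, 30.6 and 58.9 CPM with DMSO. The cisplatin libraries lay above all others, and DMSO 2 was the lowest library. Its log2 change was 1.10 ± 0.23 with cisplatin (adjusted p = 0.00918), where RRM2 fell, and 0.40 ± 0.23 with Pt-ttpy (adjusted p = 0.27). CTPS1, a CTP synthase, fell with both drugs (−0.38 with Pt-ttpy and −0.45 with cisplatin, adjusted p = 0.0489 and 0.0179), and DCTD, which deaminates dCMP, with Pt-ttpy (−0.34, adjusted p = 0.032). The Pt-ttpy call of CTPS1 was lost in 8 of 9 fits, all but that without cisplatin 2, and that of DCTD in 7, all but those without DMSO 2 or cisplatin 2 (highest adjusted p = 0.18 and 0.135). The cisplatin change of CTPS1 was −0.26 without DMSO 2 and cisplatin 2.

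The list of the G1/S switch held 34 cyclins, kinases, inhibitors, RB proteins and E2F partners, of which 33 were tested; CDK6 was not, with at most 0.193 CPM. Pt-ttpy raised 3 and lowered 1, and cisplatin raised 5 and lowered 7, with median log2 changes of −0.07 and −0.16. CDKN1A, the p21 inhibitor of CDK2 and a p53 target, was the gene of the list that moved most. CDKN1A had 29.9, 36.3 and 30.8 CPM in the Pt-ttpy libraries and 142, 160.2 and 114 CPM in the cisplatin libraries, against 15.4, 17.0 and 14.5 CPM in the DMSO libraries. The 3 groups did not overlap. Its log2 change was 1.05 ± 0.14 with Pt-ttpy and 3.15 ± 0.15 with cisplatin (adjusted p = 0.00327 and 1.2e-06), and the difference Pt-ttpy minus cisplatin was −2.10 ± 0.14 (log2, adjusted p = 7.57e-05). With both drugs TFDP2, a partner of E2F factors, rose (0.63 with Pt-ttpy and 0.79 with cisplatin, adjusted p = 0.00761 and 0.000793), and E2F4, an E2F of repressor complexes, fell (−0.52 and −0.53, adjusted p = 0.0164 and 0.00876). RBL2, the RB relative p130, rose as well (0.39 with Pt-ttpy and 0.46 with cisplatin, adjusted p = 0.0329 and 0.0115), and CDKN2C, an inhibitor of CDK4, fell with cisplatin (−0.46, adjusted p = 0.0115). Without any one Pt-ttpy library E2F4 and RBL2 lost the Pt-ttpy call, RBL2 also without DMSO 3, cisplatin 1 or cisplatin 3 (highest adjusted p = 0.0793 and 0.128). RB1 had 0.33 ± 0.16 with Pt-ttpy and 0.29 ± 0.16 with cisplatin (adjusted p = 0.187 and 0.216), or 0.19 and 0.14 without DMSO 2, and CCND1, cyclin D1, −0.11 ± 0.09 and 0.02 ± 0.09 (adjusted p = 0.432 and 0.877).

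**Figure D5:**
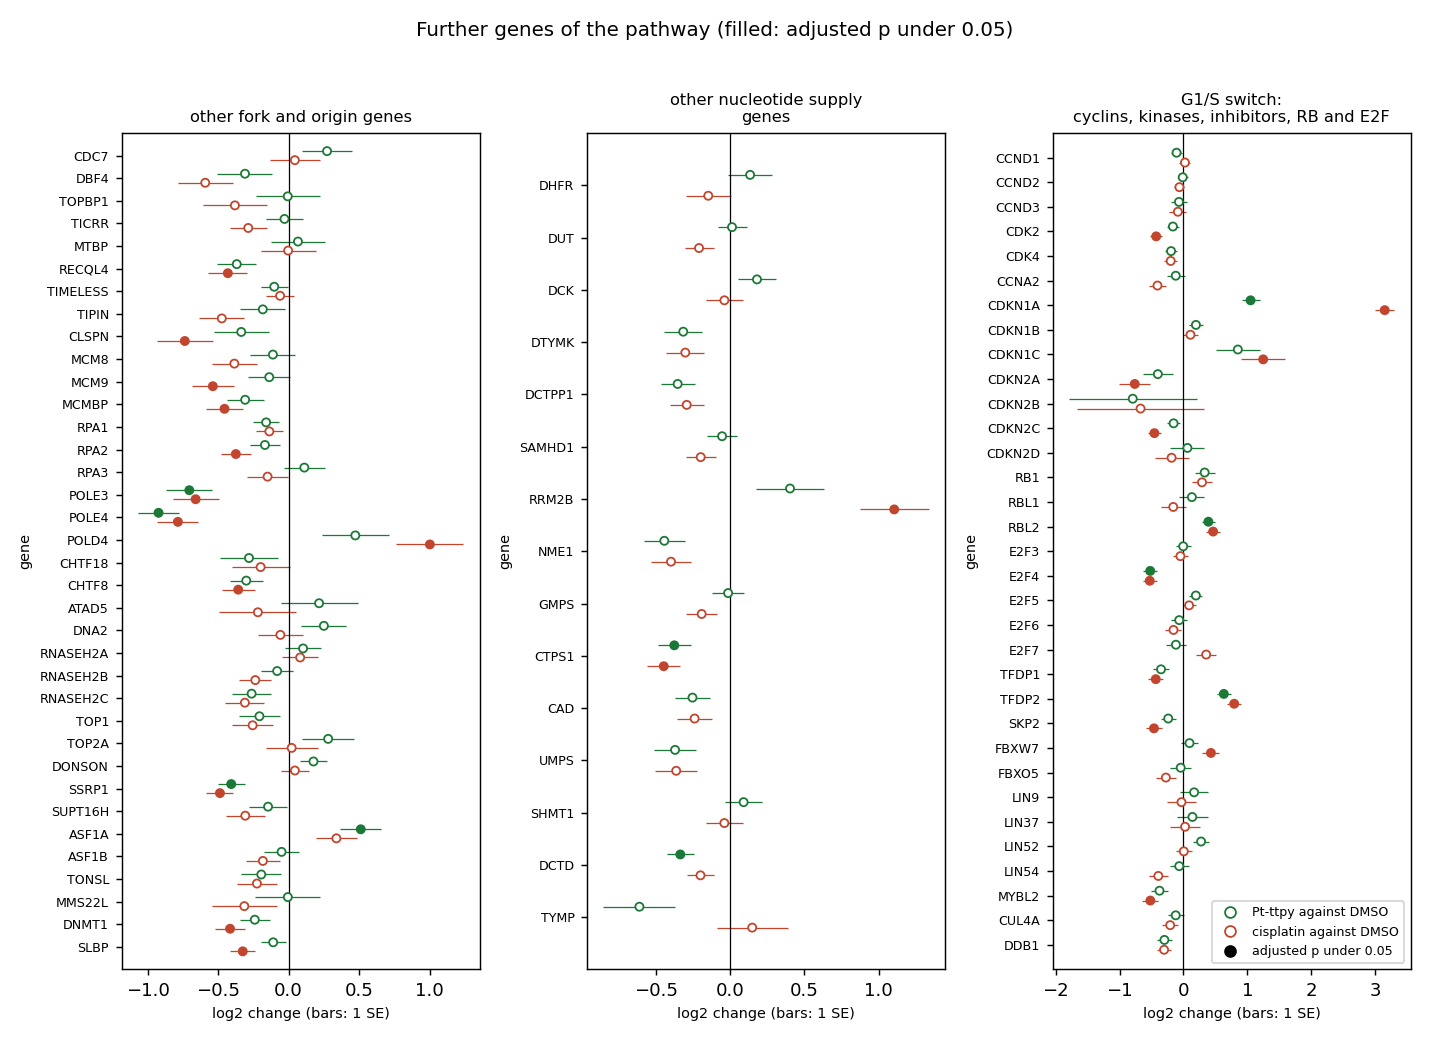
Fitted log2 change (horizontal axes, with different scales) of the genes tested in the 3 further lists, with Pt-ttpy against DMSO (green) and cisplatin against DMSO (red); bars are 1 SE and filled points have an adjusted p under 0.05. CDKN1A lies far to the right of the other genes of its list, at 1.05 with Pt-ttpy and 3.15 with cisplatin.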

How the data were processed

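Per the labels' protocols, RNA was purified with a column kit and made into mRNA libraries. The authors deposited a table of raw counts per gene for the 9 libraries, with GRCh38 named in the submitters' processing notes. Which aligner and counter made them, and whether strand was used, is not given in the sources used here. Among 24542 rows, 4568 are named newGene, with no symbol (1.56% to 2.18% of counts), and were kept. Symbols came from a table of Ensembl identifiers, and positions from GENCODE 29. Of the 54 genes 22 share exon positions with another gene.

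The test was that of edgeR 4.0.16 in R 4.3.3: filterByExpr (minimum count 10), TMM factors and a robust quasi-likelihood F test over all 9 libraries with 1 mean per group. P-values were adjusted by Benjamini-Hochberg over 15558 genes in each of 3 comparisons, and genes with an adjusted p under 0.05 were called. The prior count behind log2 changes was 0.125. CPM were computed from counts and TMM-scaled library sizes, and CPM per kb from summed exon length. The fit was tested on simulated counts. No libraries were duplicates.

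The genes and lists were chosen with earlier results of these data known. Named are all called genes (values by library for the 12 lowest p), the gene of lowest p in each role group, and up to 4 called genes per list with CDKN1A, RB1 and CCND1. PCNA, CDT1, GMNN, POLA1 and CCNE2 are also described. Alternatives were DESeq2 1.42.0, limma-voom (limma 3.58.1), other scaling factors and filters, no robust estimation, the 6 libraries of a comparison, each library left out, 7 libraries without DMSO 2 and cisplatin 2, and a replicate block.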

Additional observations from a re-analysis of the deposited data

How the results depend on the processing

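For the called genes named with a value and the medians of the 54 genes, direction was kept in each of 20 other settings; other called genes of the lists were not followed. Changed calls or counts were as follows, and where not named the cause was not tested. DESeq2 called 2834 genes of the whole table with Pt-ttpy against DMSO and 253 between the drugs, in place of 1874 and 80. With upper-quartile factors or library totals, cisplatin changed 10 of the 54 genes, 9 lower and 1 higher. The 9 were ORC1, MCM6, MCM7, FEN1, RRM2, CCNE1, CDC25A, E2F2 and CHAF1B, and the 1 was PRIM2. Over all genes the split then moved to 1050 higher and 666 lower or 1005 and 773 with Pt-ttpy (870 and 1004 with TMM factors), and to 1940 and 913 or 1995 and 943 with cisplatin (1669 and 1521 with TMM factors). In the 6 libraries of the comparison, cisplatin changed 4 of the 54 and 1313 of all genes, 918 higher and 395 lower. The 4 were ORC1, RRM2, CDC25A and E2F2, all lower. In its own 6 libraries, Pt-ttpy changed 5 of the 54 and 2217 of all genes. Without DMSO 2 and cisplatin 2, the called genes among the 54 were 19 with Pt-ttpy and 6 between the drugs, the cisplatin median was −0.14, and over all genes 5189 were called with Pt-ttpy and 813 between the drugs.

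With each library left out in turn, called genes among the 54 numbered 0 to 5 with Pt-ttpy, 8 to 16 with cisplatin and 0 to 1 between the drugs. Over all genes they numbered 185 to 3004, 2012 to 3100 and 18 to 155. Of single genes, CCND1 with cisplatin ran from −0.016 (without DMSO 3) to 0.059, also below 0 without cisplatin 3 (−0.0011), and RB1 between the drugs from −0.10 (without cisplatin 2) to 0.13; RB1 was also −0.10 without DMSO 2 and cisplatin 2. MCM7 between the drugs ran from −0.090 (without cisplatin 2) to 0.092, and was −0.091 without DMSO 2 and cisplatin 2. None of these was called.

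A replicate block, taking equal replicate numbers as pairs, gave 6 called genes of the 54 with Pt-ttpy (2 of them higher, WDHD1 and ORC3), 19 with cisplatin and 0 between the drugs, with 2539, 3712 and 140 over all genes. Deviations of same-numbered libraries correlated at 0.0996, 0.221 and 0.0821 between cisplatin and DMSO, where every library matched its own number best, and at −0.04 to 0.04 for the other pairs of groups. The first is a hint from the data, not the design, and no label says that a number marks a shared culture or day. The largest value, 0.221, was that of DMSO 2 and cisplatin 2, which share the GC trend given above. The part of that trend in the matches between cisplatin and DMSO was not tested. With 3 libraries per group, the 95% interval of a log2 change reached 0.27 on either side at the median of the 54 genes.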
